A study of Mus musculus with 2 samples.

Results

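The sarcomere is built from protein families in which one gene copy serves embryonic and neonatal muscle and another serves the adult fibre, and 10 such isoform genes were followed here through muscle repair. Of the 27998 genes of the count tables, 5 were taken as developmental isoforms and 5 as adult isoforms of fast fibres. The developmental genes were Myh3 (embryonic myosin heavy chain), Myh8 (neonatal or perinatal myosin heavy chain), Myl4 (embryonic and atrial essential light chain), Actc1 (cardiac α-actin) and Tnnt2 (cardiac troponin T). The adult genes were Myh1, Myh2 and Myh4 (myosin heavy chains of type IIx, IIa and IIb fibres), Myl1 (fast essential light chain, which fetal fibres also use) and Acta1 (skeletal α-actin). The genes were chosen by name and not by their values, and each was counted in the deposited matrices, summed over the cells of each deposited cell type label.

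The data were 2 single-cell RNA libraries (10x Genomics Chromium, 3′ v3 kit) of mouse tibialis anterior muscle, 1 taken 2 days and 1 taken 7 days after injection of notexin, a snake venom phospholipase that destroys fibres and spares muscle stem cells. Each library came from 1 mouse, and whole muscle was digested with collagenase D and dispase II, so there were no replicates and no test between conditions was possible. The labels give C57Bl/6, female and 7 months for both animals. The table of cells deposited with the data gives male for both, with ages of 4 months at day 2 and 7 months at day 7, and 6575 and 4856 counts of Y-linked genes beside 5 and 1 counts of Xist went against the female label. After injury, muscle stem cells (MuSCs) are activated, divide as myoblasts, leave the cell cycle under Myog and fuse into new fibres. New fibres are known to use the embryonic and neonatal isoforms first and to replace them with adult ones as they mature, so the isoforms present are commonly read as a sign of fibre age.

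The 2 libraries held 4836 and 4889 called barcodes with 41123913 and 32356088 counts in all, and 4 barcodes occurred in both. Cell type labels covered 3494 and 3385 barcodes, of which 3178 and 3196 were used after the study's own limits on cell quality had been applied. At day 7 these held 137 cells of the MuSC label, 175 of the label "Myoblasts/Progenitors", 76 of type IIb myonuclei and 20 of type IIx myonuclei. At day 2 they held 21, 1, 6 and 0. The limits removed 105 of 201 day 7 cells with a myonuclei label. Levels are given as CPM, the counts of a gene scaled to the usual fixed total for the cells of a population. Each transcript molecule is counted once at its 3′ end in this assay, so levels of different genes were compared without a length correction. The 95% intervals (exact Poisson for a level, conditional binomial for a ratio, Clopper-Pearson for a share) cover counting error only and say nothing of differences between mice.

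Members of the Myh family lie side by side. On GRCm38 (GENCODE vM21) Myh3, Myh2, Myh1, Myh4 and Myh8 occupy, in this order and all on the plus strand, 230.3 kb of chromosome 11 from 67078300 to 67308634. Myl4 lies on the same chromosome at 104550663 to 104595753, Myl1 and Tnnt2 on chromosome 1 at 66924295 to 66945404 and 135836354 to 135852260, Actc1 on chromosome 2 at 114047282 to 114053548, and Acta1 on chromosome 8 at 123891769 to 123894751. RefSeq promoter windows on GRCm38.p6 were found for 10 of the 10 genes. The 250 bases before the start of transcription are shown for the heavy chain genes and the pair of actin genes. Among the 5 Myh windows, the longest run of letters common to Myh2, Myh1, Myh4 and Myh8 was the 14 bases TTCTAATTATATCC, in capitals below.
Myh3 (chr11:67078050-67078299, plus strand): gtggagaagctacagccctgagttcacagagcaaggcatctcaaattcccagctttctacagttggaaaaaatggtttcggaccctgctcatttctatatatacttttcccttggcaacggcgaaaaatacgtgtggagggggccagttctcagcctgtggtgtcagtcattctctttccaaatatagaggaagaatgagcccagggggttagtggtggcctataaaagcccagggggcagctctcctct
Myh8 (chr11:67276874-67277123, plus strand): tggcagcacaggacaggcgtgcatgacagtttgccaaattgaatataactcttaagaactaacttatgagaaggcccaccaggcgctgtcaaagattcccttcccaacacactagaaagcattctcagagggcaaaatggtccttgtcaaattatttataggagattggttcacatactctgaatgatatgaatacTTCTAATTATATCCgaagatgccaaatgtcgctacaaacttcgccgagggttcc
Myh2 (chr11:67170777-67171026, plus strand): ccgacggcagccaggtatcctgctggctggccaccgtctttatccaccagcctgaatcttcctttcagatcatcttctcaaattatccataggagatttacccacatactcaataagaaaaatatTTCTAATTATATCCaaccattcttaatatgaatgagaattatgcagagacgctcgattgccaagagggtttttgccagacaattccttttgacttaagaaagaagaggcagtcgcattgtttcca
Myh1 (chr11:67199852-67200101, plus strand): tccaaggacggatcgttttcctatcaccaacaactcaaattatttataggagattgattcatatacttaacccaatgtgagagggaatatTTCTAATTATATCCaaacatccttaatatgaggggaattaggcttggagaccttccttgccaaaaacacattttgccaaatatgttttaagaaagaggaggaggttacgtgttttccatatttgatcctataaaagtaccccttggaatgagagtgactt
Myh4 (chr11:67237562-67237811, plus strand): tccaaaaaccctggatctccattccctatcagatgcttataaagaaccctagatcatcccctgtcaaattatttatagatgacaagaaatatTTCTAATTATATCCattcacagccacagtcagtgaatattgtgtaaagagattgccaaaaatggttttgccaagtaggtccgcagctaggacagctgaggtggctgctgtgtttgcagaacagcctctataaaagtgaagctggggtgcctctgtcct
The run began 125 bases before the start of Myh2, 160 before Myh1, 158 before Myh4 and 54 before Myh8. It was not in the Myh3 window. Searched on both strands, it was in 4 of the 32851 windows of 300 bases in the table (0.0122%), which are these 4. A longer run of 20 bases that contains it, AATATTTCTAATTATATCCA, was in 3 windows (0.00913%), those of the adult genes Myh2, Myh1 and Myh4. The run was sought in these 4 windows alone, and no run that includes Myh3 was sought.

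In the actin pair, capitals mark the CArG box, the site known to bind serum response factor, which drives muscle actin genes.
Actc1 (chr2:114052876-114053125, minus strand): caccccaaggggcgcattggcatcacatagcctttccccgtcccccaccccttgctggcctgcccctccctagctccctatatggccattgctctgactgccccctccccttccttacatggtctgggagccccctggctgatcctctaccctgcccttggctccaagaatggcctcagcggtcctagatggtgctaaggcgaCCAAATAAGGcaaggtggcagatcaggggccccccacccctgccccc
Acta1 (chr8:123894776-123895025, minus strand): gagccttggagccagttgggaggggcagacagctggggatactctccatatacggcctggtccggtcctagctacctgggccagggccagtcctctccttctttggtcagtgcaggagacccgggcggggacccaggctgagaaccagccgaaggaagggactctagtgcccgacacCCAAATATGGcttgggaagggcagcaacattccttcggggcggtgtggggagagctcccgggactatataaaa
The box began 47 bases before the Actc1 start and 73 bases before the Acta1 start. It was in 535 windows (1.63%), and among the 10 genes also in that of Myh4, where it did not overlap the shared Myh run and is not in capitals. The box reads as a CArG box on both strands. A match of letters is a description and was not tested as a binding site.

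Reads can be hard to assign within these families. Over the last 500 bases of the transcripts, where 3′ reads fall, 15.96% of Myh1, 15.96% of Myh2, 7.54% of Myh4 and 1.33% of Myh8 lay in stretches of 50 bases found in another gene's transcript, while Myh3, Myl4, Actc1, Acta1 and Tnnt2 had none. For Myl1 the share was 19.96%, held in common with the pseudogene Mylf-ps. Values of Myh1 and Myh2 are uncertain to that extent.

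The muscle labels were checked against marker genes. The 10 listed fibre markers were all detected in type IIb myonuclei (162218 CPM summed) and in type IIx myonuclei (145213 CPM), against 808 CPM in the MuSC label and 546 CPM in the non-muscle labels. Stem cell markers came to 2999 CPM in the MuSC label, with Pax7 at 474 CPM. Pax7, Myf5 and Myod1 were at 0 in type IIx myonuclei. Type IIb myonuclei held 7 of the 8 stem cell markers, all but Sdc4, at 124 CPM summed. At day 2 the markers bore out the names poorly. The 6 type IIb cells held 9 of the 10 fibre markers in sum, but 2 of the 6 cells had 1% or more of the fibre genes, and the median cell had 0 CPM of fibre markers and 4141 CPM of monocyte and macrophage markers. The 1 myoblast cell held no count of the stem cell, myoblast or fibre markers, and the median of the 21 MuSC cells was 0 CPM of stem cell markers, although all 8 were detected in their sum (1811 CPM). The cardiac genes Myh6, Tnni3, Myl7 and Nppa were at 0 in both myonuclei labels of day 7. The label "Myoblasts/Progenitors" joined cells of very different content. In 55 of its 175 cells, 9 genes of the mature fibre (Ckm, Mylpf, Tnnc2, Ttn, Pvalb, Atp2a1, Actn3, Tcap and Myoz1) held at least 1% of counts, and these cells are called the fibre range. A further 26 cells below that share held 3 or more counts of Myog, the regulator of terminal differentiation, and are called the Myog range. The other 94 cells had Pax7 at 352 CPM and Myf5 at 237 CPM. No isoform gene was used to draw these ranges, but the ranges were drawn after values had been seen, so what follows on them is a description. The highest fibre share below the range was 0.940% and the lowest inside it 2.62%, while 12 cells of the label lay just under the Myog limit with 1 or 2 counts. Genes of myoblast fusion were higher in the Myog range. Tmem8c (myomaker) stood at 266 CPM in the Myog range and 25.6 CPM in the fibre range, and Gm7325 (myomixer) at 374 and 58.1 CPM. The fibre range values rest largely on 1 cell, that of 2.62% fibre share, which held 16 counts of Tmem8c and 58 of Gm7325.

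Adult isoforms held nearly all isoform counts of the fibre-like cells, and the developmental isoforms were a small but measurable part. The 10 genes together made up a median of 10.98% of a cell's counts in the myonuclei labels and 11.8% in the fibre range, against 0.098% in the Myog range and 0.027% in the MuSC label. Summed, the 10 genes reached 104742 CPM in the myonuclei and 130653 CPM in the fibre range. The Myog range stood at 1773 CPM (1640 to 1915), and the MuSC label at 433 CPM (387 to 482) was little above the 390 CPM (383 to 398) of the non-muscle labels.

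**Figure D1:**
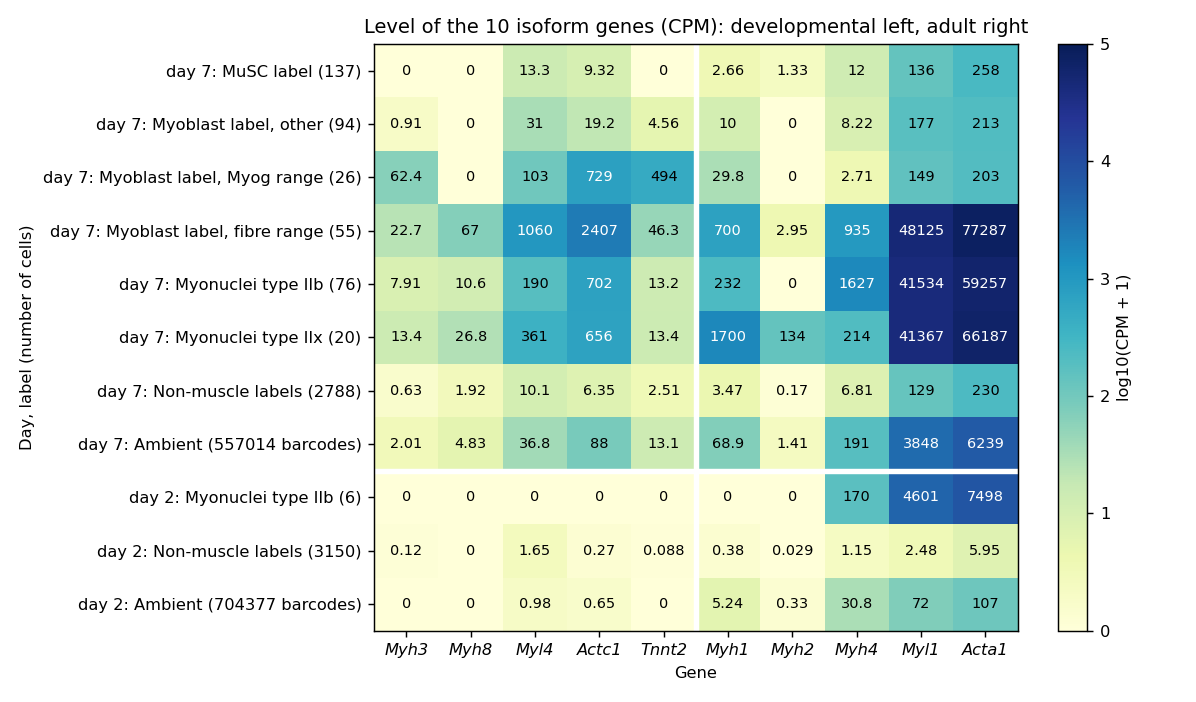
Level of each isoform gene (columns, developmental left and adult right) in each day 7 and day 2 population (rows, number of cells in brackets), in CPM, coloured by log10(CPM + 1). In the Myog range Actc1 (729 CPM) and Tnnt2 (494 CPM) stood above Acta1 (203 CPM) and Myl1 (149 CPM), whereas in the fibre range and both myonuclei labels Acta1 and Myl1 stood highest by far.

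Myosin heavy chains form the motor of the thick filament, and each gene sets the speed of the fibre that uses it. Embryonic Myh3 was highest in the Myog range, at 62.4 CPM (39.5 to 93.6), from 23 counts in 9 of 26 cells of a median 11148 counts. In the fibre range Myh3 stood at 22.7 CPM (14.4 to 34.0), also 23 counts, in 8 of 55 cells. In type IIb and type IIx myonuclei it stood at 7.91 CPM (3 counts) and 13.4 CPM (1 count). The MuSC label and the 333 cells of the endothelial labels, which should lack the gene and had a median of 4217 counts, held 0 counts. Per count sequenced, Myh3 was 2.75-fold higher (1.48 to 5.13) in the Myog range than in the fibre range, while under scaling by the median of gene ratios the ranges stood level. A single Myog range cell held 10 of the 23 counts, and a single fibre range cell, that of the lowest fibre share, held 8 of 23.

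Neonatal Myh8 had another distribution. It was at 67.0 CPM (52.0 to 84.9) in the fibre range, from 68 counts in 20 cells, and at 0 in the Myog range, where a count of 0 allows up to 8.13 CPM. Against the floor of 3 counts the fibre range was at least 8.23-fold higher. In type IIb and type IIx myonuclei Myh8 stood at 10.6 CPM (4 counts) and 26.8 CPM (2 counts). Between the fibre range and both myonuclei labels together, Myh8 was 5.07-fold higher in the fibre range (2.21 to 14.3) and Myh3 2.57-fold higher (0.878 to 10.2), an interval that includes no difference. Per count sequenced, the embryonic gene was thus highest in the cells rich in Myog, and the neonatal gene in cells that already carried the fibre genes.

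Adult heavy chains separated the fibre types. Type IIb myonuclei held Myh4 at 1627 CPM (1502 to 1761) and Myh1 at 232 CPM (186 to 286). Type IIx myonuclei held Myh4 at 214 CPM (122 to 348) and Myh1 at 1700 CPM (1417 to 2023). Myh4 was 7.60-fold higher (4.64 to 13.4) in type IIb, and Myh1 7.33-fold higher (5.54 to 9.73) in type IIx, and the label names rest in part on such genes. Myh2, the type IIa gene, was at 134 CPM (64.2 to 246) in type IIx and at 0 in type IIb, at least 16.9-fold apart. The fibre range held both fast genes at near levels, with Myh1 at 700 CPM (650 to 754) and Myh4 at 935 CPM (876 to 996), and Myh2 at 2.95 CPM from 3 counts. Compared with both myonuclei labels together, the fibre range had 1.48-fold more Myh1 (1.27 to 1.73) and 1.49-fold less Myh4 (1.35 to 1.65).

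Single cells showed the same mixture. Among day 7 muscle cells with 10 or more counts of the 5 Myh genes, 40 of 62 had Myh4 as the leading gene, 21 had Myh1 and 1 had Myh3. Of the 24 such cells with the type IIb label, 22 were led by Myh4 and in 16 the leading gene held 90% or more. Of the 32 in the myoblast label, 17 were led by Myh4 and 14 by Myh1, 24 held 3 or more counts of both, and in 4 the leading gene held 90% or more. The 1 cell led by Myh3 belonged to the Myog range. In type IIb, 8 of the 24 cells held 3 or more counts of both. Over all cells of any Myh count, 25 of 55 in the fibre range and 10 of 76 in type IIb did so, and the deeper sampling of the fibre range (median 9325 against 3825.5 counts per cell) moved with this, its part not being tested.

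**Figure D2:**
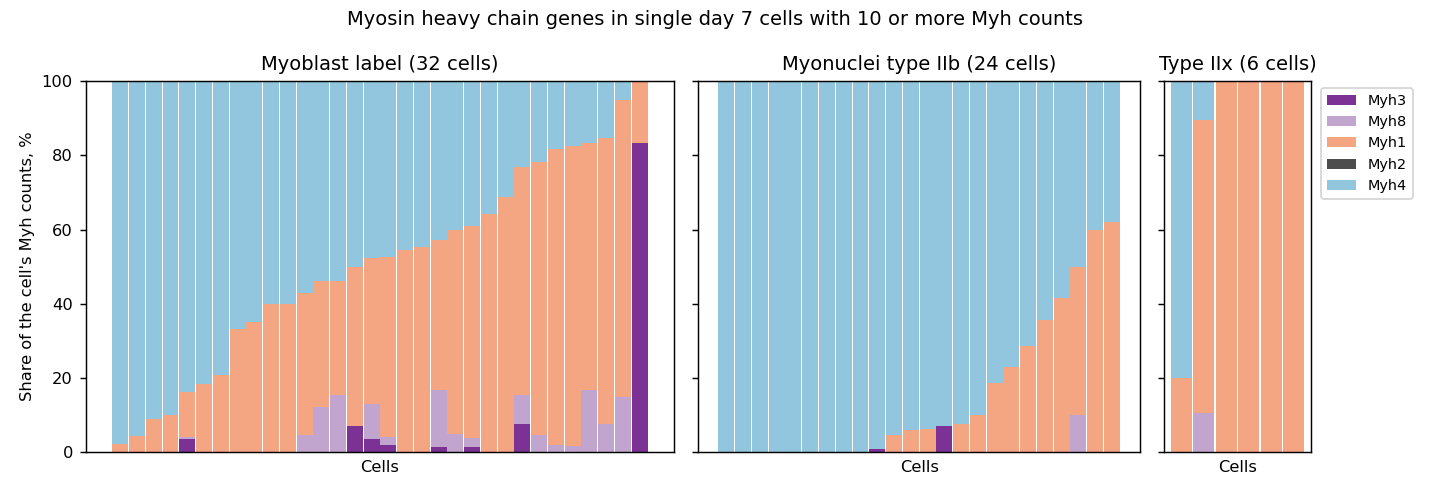
Share of each Myh gene (y axis, percent) among the Myh counts of each day 7 cell with 10 or more such counts (1 bar per cell, ordered by Myh4 share), for the myoblast label, type IIb and type IIx myonuclei. Most of the 32 bars of the myoblast label are split between Myh1 and Myh4 with slices of Myh8, the rightmost bar is led by Myh3, and 16 of 24 type IIb bars belong to 1 gene by 90% or more.

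The share of Myh3 and Myh8 among the counts of the 5 Myh genes gives the developmental part of the motor. It was 65.7% (47.8 to 80.9, 23 of 35 counts) in the Myog range, 5.19% (4.197 to 6.33, 91 of 1754) in the fibre range and 1.15% (0.554 to 2.11, 10 of 868) in the myonuclei. The fibre range exceeded the myonuclei by 4.04 points (2.66 to 5.33). The Myog range exceeded the fibre range by 60.5 points (42.6 to 75.7), a gap that rests on few counts. A single cell decided much of it: with the fibre range drawn at 3%, the cell of 2.62% fibre share, which held 182 counts of Myh4, 26 of Myog and 58 of Gm7325, passed to the Myog range and the gap became 7.36 points. Both classes of Myh gene were met in the same cell in 35 of 408 muscle cells (8.58%, 6.05 to 11.7). After each cell was thinned to 2000 counts, which left out 7 cells, this was 10 of 401 (2.49%, 1.20 to 4.54), of which 7 had the myoblast label. In the unthinned MuSC label, 0 of 137 cells had counts of both, which allows up to 2.19% of cells with such counts.

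The essential light chains bind the neck of the myosin head. Embryonic Myl4 stood at 1060 CPM (997 to 1125) in the fibre range and was found in 54 of its 55 cells. It stood at 103 CPM (72.9 to 141) in the Myog range, in 9 of 26 cells. In type IIb and type IIx myonuclei Myl4 stood at 190 CPM (149 to 239) and 361 CPM (238 to 526). The fibre range was 10.3-fold above the Myog range (7.45 to 14.6) and 4.86-fold above the myonuclei (3.95 to 6.03). Its fast counterpart Myl1 was at 48125 CPM in the fibre range and 149 CPM (112 to 194) in the Myog range, 323-fold apart (248 to 428). Myl1 stood at 41534 CPM in type IIb and 41367 CPM in type IIx myonuclei, a ratio of 1.004 (0.966 to 1.044). As a share of both light chains, Myl4 was 40.9% (30.8 to 51.5, 38 of 93 counts) in the Myog range, 2.15% (2.03 to 2.29) in the fibre range and 0.523% (0.425 to 0.636) in the myonuclei. Of the 4 shares, the Myl4 share was the one whose interval separated the fibre types, type IIb minus type IIx being −0.411 points (−0.815 to −0.0938).

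Actc1 and Acta1 encode nearly identical thin filament actins. The Myog range held Actc1 at 729 CPM (645 to 822) in 16 of its 26 cells, and Acta1 at 203 CPM (160 to 255) in 20 cells. In the fibre range Actc1 was 3.30-fold higher (2.91 to 3.76), at 2407 CPM (2313 to 2505), while Acta1 was 380-fold higher (303 to 483), at 77287 CPM. Type IIb myonuclei held 702 CPM (620 to 791) of Actc1 and 59257 CPM of Acta1, and type IIx held 656 CPM (485 to 867) and 66187 CPM. Actc1 was thus 3.47-fold higher in the fibre range than in the myonuclei (3.08 to 3.91) and Acta1 1.28-fold higher. Only the Myog range had more Actc1 than Acta1 among these day 7 muscle populations. The Acta1 level of the Myog range was that of the 94 other cells of the label (ratio 0.956, 0.727 to 1.25) and near the 230 CPM of the non-muscle labels, and the authors' correction for ambient RNA (SoupX) removed 72.2% of it but 0.98% of the Actc1. Actc1 itself was 38.1-fold higher in the Myog range than in the 94 other cells (24.4 to 62.5).

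The Actc1 share of both actins was 78.2% (73.5 to 82.4, 269 of 344 counts) in the Myog range, 3.02% (2.90 to 3.14) in the fibre range and 1.14% (1.01 to 1.27, 315 of 27724) in the myonuclei. In the Myog range 14 cells had more Actc1 than Acta1, 9 had less and 3 had equal counts. Its cell with the most Myog (196 of 43428 counts) held 59 counts of Actc1, 8 of Acta1, 46 of Tnnt2, 11 of Myl4 and 2 of Myh3. Its cell with the most Actc1 (24035 counts in all) held 71 of Actc1, 30 of Acta1, 50 of Tnnt2 and 10 of Myh3. A shallow cell of 4504 counts showed the same balance, with 24 counts of Myog, 10 of Actc1, 11 of Tnnt2 and 0 of Acta1. The cell with the least Myog (3 counts) held neither actin gene. At the other end, the deepest fibre range cell (154154 counts) held 396 counts of Actc1 beside 16809 of Acta1, 308 of Myl4 beside 7337 of Myl1, and 4 each of Myh3 and Myh8 beside 95 of Myh1 and 93 of Myh4. The next deepest (119433 counts) was much like it, with 380 counts of Actc1 beside 13396 of Acta1, 282 of Myl4 beside 5915 of Myl1, 2 of Myh3 and 3 of Myh8.

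Among cells with at least 100 counts of both actins, Actc1 was at 0 in 3 of 53 fibre range cells, with a median share of 2.39% (quartiles 1.47% and 3.57%, highest 12.9%). It was at 0 in 33 of 65 type IIb cells and in 10 of 18 type IIx cells, though shares up to 7.56% and 10.5% occurred. Myl4 was at 0 in 1 of 53 fibre range cells (median 1.20%) and in 38 of 60 type IIb cells. Actc1 and Myl4 were thus spread over nearly all fibre range cells and over a part of the myonuclei, whereas Tnnt2 was at 0 in 27 of 46 fibre range cells with at least 100 troponin T counts. Depth per cell moved with this, at a median of 9325 counts in the fibre range and 3825.5 in type IIb, and its part was not tested. Within single cells the Actc1 share followed the Myl4 share loosely (Spearman rho 0.461 over 121 muscle cells with 100 counts of each pair). It did so over the 68 of them with a myonuclei label (0.519), and over the 53 with the myoblast label it did not (−0.0507). These cells share 1 library, and the values are a description.

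**Figure D3:**
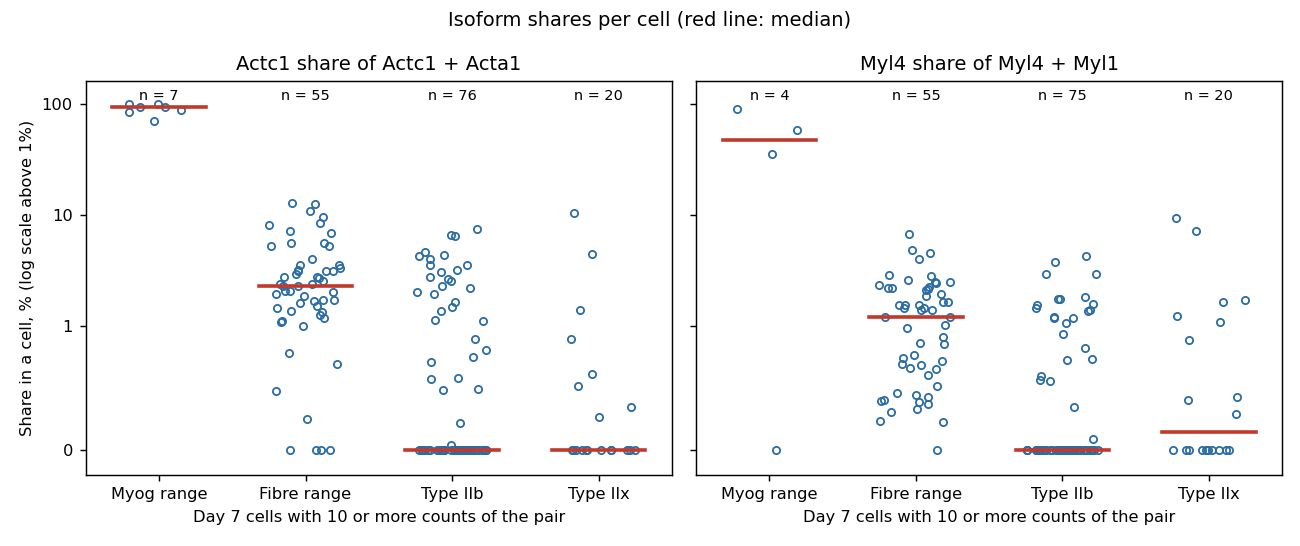
Actc1 share of Actc1 and Acta1 (left) and Myl4 share of Myl4 and Myl1 (right) in each day 7 cell (point) with 10 or more counts of the pair, in percent on an axis that is linear to 1 and logarithmic above, with the median in red and the number of cells on top. All 7 Myog range cells lie at 70.3% or more for Actc1, fibre range cells centre on 2.30%, and the Actc1 median of both myonuclei labels is 0.

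Troponin T anchors the troponin complex, the calcium switch of the thin filament, to tropomyosin. Its cardiac form Tnnt2 stood at 494 CPM (424 to 571) in the Myog range, in 14 of 26 cells, and at 46.3 CPM (34.0 to 61.6) in the fibre range, in 20 of 55. In type IIb and type IIx myonuclei Tnnt2 stood at 13.2 CPM (5 counts) and 13.4 CPM (1 count), and the MuSC label held none. Alone with Myh3 among the 10 genes, it was lower in the fibre range than in the Myog range, by 10.7-fold (7.70 to 15.02). The endothelial labels held Tnnt2 in 1 of 333 cells. Its share of Tnnt1, Tnnt2 and Tnnt3 was 72.5% (66.5 to 77.9, 182 of 251 counts) in the Myog range, 0.193% (0.142 to 0.256) in the fibre range and 0.0558% (0.0205 to 0.121) in the myonuclei. The fast gene Tnnt3 stood at 51.5 CPM in the Myog range and 23542 CPM in the fibre range, and its levels in fibre range and myonuclei did not differ beyond counting error, the interval of their ratio being 0.977 to 1.023.

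**Figure D4:**
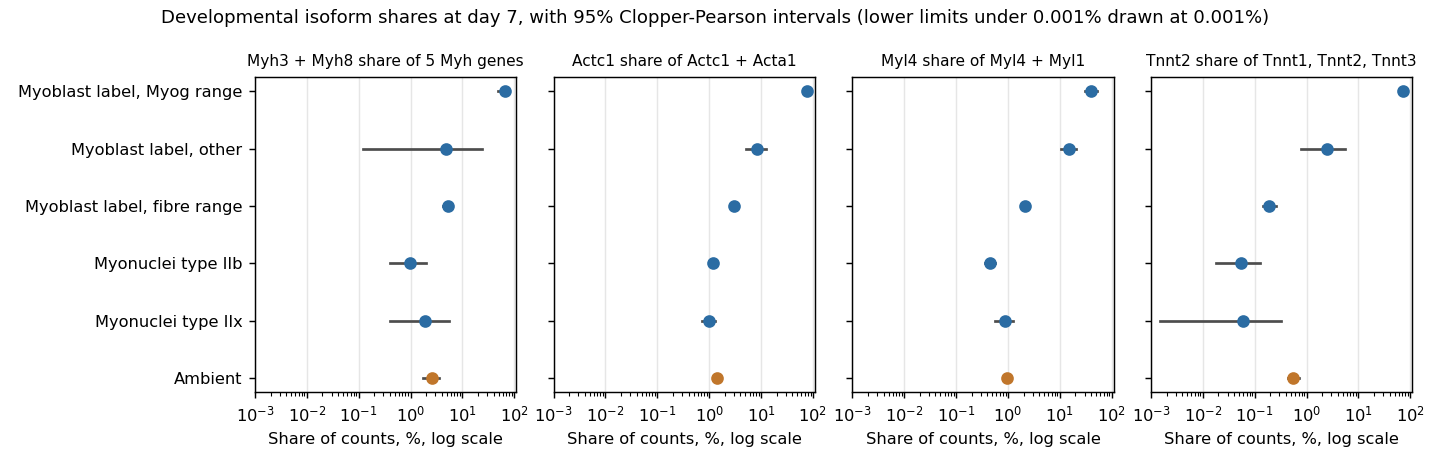
Developmental share of each isoform family (x axis, percent, log scale) in the day 7 muscle populations and the ambient RNA (y axis), with 95% Clopper-Pearson intervals. In each of the 4 panels the Myog range lies highest, between 40.9% and 78.2%, the fibre range lies at 5.19% or lower, and type IIb myonuclei lie at or below 1.17%. The Myog range was limited to cells with few fibre genes, which in part sets its high shares.

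Before differentiation the isoform genes were at or near background. The MuSC label held 0 counts of Myh3, Myh8 and Tnnt2, each of which allows up to 3.99 CPM, and held Actc1 at 9.32 CPM and Myl4 at 13.3 CPM, where the non-muscle labels had 6.35 and 10.1 CPM. Its Acta1 (258 CPM) and Myl1 (136 CPM) were close to the 230 and 129 CPM of the non-muscle labels as well. The 94 cells of the myoblast label outside both ranges were only a little higher in developmental genes, with Myl4 at 31.0 CPM, Actc1 at 19.2 CPM, Tnnt2 at 4.56 CPM and Myh3 at 0.91 CPM from 1 count. From these 94 cells to the Myog range, Tnnt2 was 108.1-fold higher (45.5 to 337), Myh3 68.3-fold (11.1 to 2814), Actc1 38.1-fold and Myl4 3.32-fold (2.03 to 5.44), whereas Myl1 was not distinguishable (ratio 0.842, 0.613 to 1.14). The Myog range was limited to cells with few fibre genes, which bounds Acta1, Myl1 and Tnnt3 in it, so their low levels there are no separate result. Over the label as a whole, compared with the MuSC label, Tnnt2 was at least 23.6-fold higher, Myh8 at least 6.87-fold and Myh3 at least 4.75-fold, beside 118-fold for Actc1, 34.8-fold for Myl4, 123-fold for Acta1, 146-fold for Myl1 and 111.04-fold (30.6 to 919) for Myh1.

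For all 4 families the order of the developmental share was Myog range, fibre range, myonuclei. The limit on fibre genes in the Myog range also bounds the adult genes of its actin, light chain and troponin T shares. Its gaps to the fibre range in these families are therefore set in part by how the ranges were drawn, and are no separate result. Differences between the Myog and fibre ranges were 60.5 points for Myh, 75.2 (70.4 to 79.4) for actin, 38.7 (28.6 to 49.4) for light chain and 72.3 (66.3 to 77.7) for troponin T. Between the fibre range and the myonuclei they were 4.04, 1.88 (1.71 to 2.06), 1.63 (1.46 to 1.80) and 0.137 (0.0539 to 0.210) points. Over all 201 cells with a myonuclei label, the study's limits left aside, the myonuclei shares were 17 of 1214 counts for Myh, 1.35% for actin, 0.543% for light chain and 0.0605% for troponin T. The single cell of 2.62% fibre share again mattered, since with it in the Myog range the first set became 7.36, 41.4, 6.79 and 39.98 points. The label as a whole gave a less even picture, since its 5 deepest contributors held 50.9% of its isoform counts. Its summed shares were 6.35%, 3.35%, 2.28% and 0.943% for Myh, actin, light chain and troponin T. The means over its cells with at least 10 counts of the family were 12.4% for actin, 4.97% for light chain and 9.002% for troponin T.

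To place the genes among all genes, a gene with at least 30 counts over both sums was called when it differed at least 4-fold. From the MuSC label to the myoblast label, 9 of 9 isoform genes were called higher (Myh2 had too few counts), against 3.96% of the 8223 genes. Their median log2 ratio was 5.12, against −0.39 for all genes. Of 40 other sarcomere and fibre genes, 25 of the 30 with enough counts were higher, with a median of 5.06. Those not called included Tpm3 (slow tropomyosin) and Atp2a2 (slow calcium pump), named here after their values were seen. From the myoblast label to the myonuclei, 0 of 9 were higher (background 0.972% of 7408 genes) and 1, Tnnt2, was lower by 7.14-fold (3.23 to 19.6), where 18.6% of all genes were lower. The other 40 genes gave 0 higher and 2 lower, Tpm3 and Atp2a2. Scaling by the median of gene ratios moved the levels by 0.65 on the log2 scale and turned the calls from 4.96% higher to 26.8% higher, with Myh4 then higher and Tnnt2 still lower. The same scaling moved the first comparison by 0.51, from 77.1% to 92.3% of calls higher, with 9 of 9 again higher.

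Between the Myog and fibre ranges, 6 genes were called higher in the fibre range (Myh8, Myh1, Myh4, Myl4, Myl1 and Acta1), where 10.3% of 3948 genes were higher. Tnnt2 was called lower per count sequenced, where 33.4% of genes were lower, and Myh3 and Actc1 were neither. The median log2 ratio was 3.36 for the 9 genes and −0.91 for all. Of the other sarcomere genes with enough counts, 23 of 29 were higher. The 29 include the 9 fibre genes used to draw the ranges, all but Ttn called higher, so those calls are no separate result. Tnni1 (slow troponin I, a fetal isoform of fast fibres), which was not used to draw them, stood at 594 CPM against 127 CPM. Scaling by the median of gene ratios shifted the levels by 1.46 and the calls from 23.5% to 61.7% higher. Actc1 was then called higher and Tnnt2 no longer lower, and Myh3, whose ratio is as large as this shift, stood level between the ranges. The directions for Myh3 and the size for Tnnt2 therefore hold per count sequenced and not under every scaling. Shares within a family do not depend on scaling, but they do depend on how the ranges were drawn.

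Tceal7 (r = 0.951), Lrrc39 (0.948), Lmod2 (0.947) and Tnni1 (0.945) had the levels most like the sum of the developmental genes over 23 day 7 labels, by Pearson correlation of log2(CPM + 1). For the sum of the adult genes these were Tnnt3 (0.998), Mylpf (0.995), Tnnc2 (0.994) and Tnni2 (0.992), all parts of the fast sarcomere. The labels share a library and its ambient RNA, and 11490 genes were ranked, so the correlations are a description.

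Almost none of this was present at day 2. The 10 genes summed to 16.3 CPM over all kept cells at day 2 and were 423-fold higher at day 7 (389 to 461). Of the 9 genes with enough counts, 9 were called higher at day 7, where 12.5% of 14421 genes were. Their median log2 ratio was 6.61, against 0.28 for all genes, and 27 of 33 other sarcomere genes were also higher, with a median of 6.10. By gene, Actc1 was 439-fold higher (231 to 961), Tnnt2 123-fold (41.8 to 601), Myl4 32.4-fold and Myh3 20.3-fold (7.57 to 76.8), while Acta1 was 475-fold and Myl1 635-fold higher. Myh8 was at 0 at day 2 and at least 49.3-fold higher at day 7. In sums over all cells, a larger number of muscle cells and more RNA per cell cannot be told apart, and day 2 had 28 cells with a muscle label, whose markers went partly against it, against 408. The 21 cells labelled MuSC at day 2 held 0 counts of the 10 genes and the single cell labelled as a myoblast held 1 count, of Myl4. The 6 cells labelled type IIb at day 2, with 11736 counts in all, held 88 counts of Acta1 (7498 CPM), 54 of Myl1 (4601 CPM) and 2 of Myh4, and none of the other genes. Age differs with day in the table of cells, and mouse, age and day cannot be told apart.

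RNA outside cells was read from barcodes of 1 to 100 counts, 704377 at day 2 and 557014 at day 7. In this ambient RNA the 10 genes summed to 217 CPM at day 2 and 10493 CPM at day 7, 48.3-fold higher (44.7 to 52.2). All 7 genes with enough counts were called higher at day 7, where 13.6% of 10286 genes were, and 26 of 29 other sarcomere genes were too. Under scaling by the median of gene ratios, which moved levels by −0.67 and the calls from 92.3% to 77.6% higher, 6 of the 7 remained and Myh4 did not. Actc1 was 134-fold higher (37.0 to 1113), Acta1 58.1-fold, Myl1 53.4-fold, Myl4 37.5-fold (12.6 to 184) and Tnnt2 at least 13.3-fold. Myh4 was 6.20-fold higher and already stood at 30.8 CPM at day 2, and Myh3, Myh8 and Tnnt2 were at 0 at day 2, which allows up to 0.982 CPM. At day 7 Acta1 stood at 6239 CPM and Myl1 at 3848 CPM of the ambient RNA, Myh4 at 191 CPM and Myh1 at 68.9 CPM. Of the developmental genes Actc1 stood at 88.0 CPM, Myl4 at 36.8 CPM, Tnnt2 at 13.1 CPM, Myh8 at 4.83 CPM and Myh3 at 2.01 CPM. The CPM of Tnnt2 in the myonuclei and in the ambient RNA did not differ beyond counting error (ratio 1.01, 0.358 to 2.32). The ambient level is not the background inside a cell, and the non-muscle labels held Tnnt2 below it. What part of the myonuclear Tnnt2 was ambient was not tested. The developmental shares of the day 7 ambient RNA were 2.55% (1.78 to 3.55) for Myh, 1.39% (1.26 to 1.53) for actin, 0.949% for light chain and 0.558% (0.431 to 0.711) for troponin T. The myonuclei lay below this in each family, with differences of −1.402, −0.255, −0.426 and −0.502 points and no interval reaching 0. For Myh, actin and light chain the ambient share also lay below that of the fibre range. For troponin T it lay above, the fibre range minus ambient being −0.365 points (−0.526 to −0.223).

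Ambient RNA sets the background for cells that make none of these proteins. At day 7 the non-muscle labels held the 10 genes at 390 CPM, 26.9-fold under the ambient level, and the correction for ambient RNA took away 69.4% of this sum. Acta1, Myl1 and Myh4 were 27.1, 29.9 and 28.0-fold below ambient, but Actc1 was 13.9-fold, Tnnt2 5.22-fold, Myl4 3.66-fold and Myh3 3.21-fold below. Myh8 was 2.51-fold, Myh2 8.43-fold (4 counts) and Myh1 19.9-fold below, so the distance from ambient was not the same for all genes. Of the 15 Myh3 counts, 5 came from 1 cell with a smooth muscle label. In the monocyte and macrophage labels (757 cells), the Actc1 share was 5.21% (4.24 to 6.31, 97 of 1863 counts, in 68 cells), 3.82 points (2.84 to 4.93) above ambient. Their Tnnt2 share was 4.95% (3.51 to 6.76, 37 of 747 counts, in 27 cells), 4.39 points (2.94 to 6.21) above ambient. These are low levels, 12.9 CPM of Actc1 and 4.92 CPM of Tnnt2. The Actc1 share was 0.940% in endothelial labels and 1.19% in T, NK and B cell labels, near the ambient 1.39%. A Tnnt2 excess over ambient was also measured in the smooth muscle labels, at 3.66 points (1.48 to 7.07). It came from 7 cells, with up to 3 counts in 1 cell. A smaller excess was measured in fibro-adipogenic progenitors (FAPs), at 0.992 points (0.1003 to 2.48). The monocyte and macrophage labels held Myog in 28 cells (31 counts, 4.12 CPM). Myog stood higher in the smooth muscle labels (9.23 CPM, 25 counts in 5 cells) and the neural labels (42.0 CPM, 9 counts in 1 cell). It was lower in the other non-muscle labels. Of the 757 monocyte and macrophage cells, 7 held 1% or more of the 9 fibre genes. Without those 7 cells the differences from ambient were 4.51 and 4.98 points.

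Myl4 showed another pattern outside muscle. Its share of both light chains was 10.1% in FAPs, 15.1% in the smooth muscle labels, 12.8% in tenocytes (6 of 47 counts) and 7.61% in monocytes and macrophages, against 0.949% in the ambient RNA. FAPs exceeded ambient by 9.15 points (7.07 to 11.5) and smooth muscle by 14.2 points (10.2 to 18.9). A single smooth muscle cell held 22 of the 43 Myl4 counts of its labels, and without it their share was 8.61% (5.41 to 12.9, 21 of 244 counts) and their excess 7.66 points (4.45 to 11.9). Endothelial cells at 1.97% and lymphoid cells at 3.797% were lower. At day 2 the non-muscle labels, held 56 counts of Myl4 among 140 of both light chains (a share of 31.8% to 48.6%), and these lay in 54 cells. In Myh genes, the smooth muscle share of 50.5% came from this same cell of 18217 counts, with 39 of Myh8, 5 of Myh3 and 22 of Myl4, which also held 25 counts of Pecam1, an endothelial gene.

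**Figure D5:**
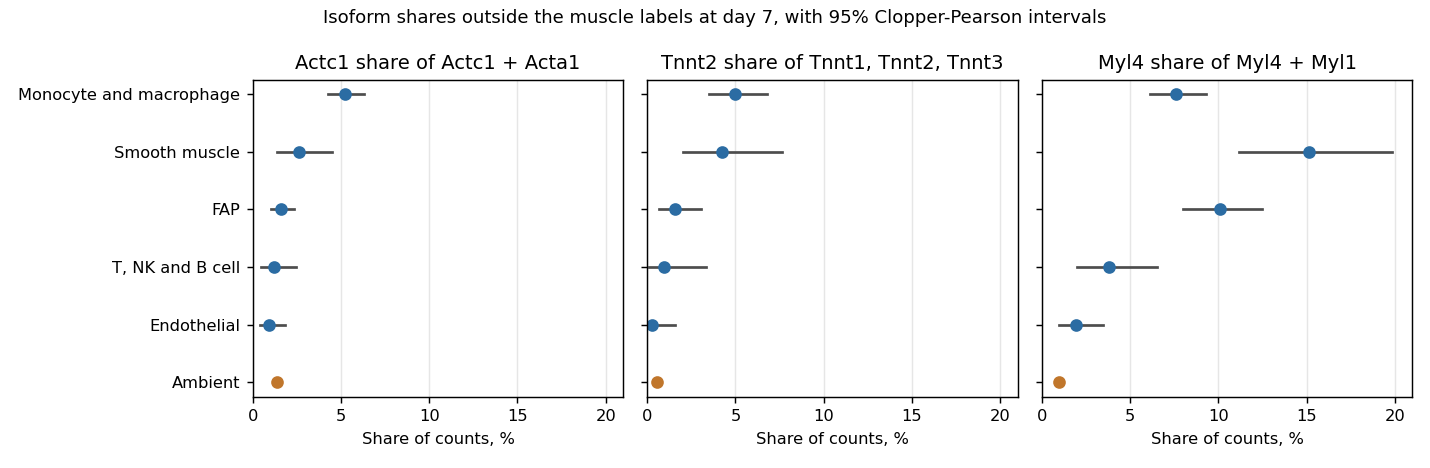
Share of Actc1 (left), Tnnt2 (middle) and Myl4 (right) within its family (x axis, percent) in the non-muscle labels of day 7 and in the ambient RNA (orange), with 95% Clopper-Pearson intervals. Monocytes and macrophages lie above the ambient RNA in all 3 panels, and for Myl4 the smooth muscle labels stand at 15.1%, or 8.61% without 1 cell, and the FAP labels at 10.1%.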

How the data were processed

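Single-cell RNA libraries of 1 day 2 and 1 day 7 muscle were read from the deposited 10x matrices, whose values are whole counts of UMIs that the authors made with Cell Ranger on mm10 (3.1.0 in the submitters' processing notes, which also list Seurat 3.1.5). The authors also deposited estimated counts corrected for ambient RNA with SoupX, used here for the limits on cells and as an alternative, and a table of cell type labels. By the methods, labels came from clusters of a larger integrated collection after doublets had been removed with DoubletFinder, so no doublet caller was run here. A cell was kept when its corrected values had at least 750 genes, 1000 transcripts and at most 30% mitochondrial transcripts. All columns used belonged to the 2 libraries.

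Uncorrected counts were summed per label and divided by all counts of its cells. Because each time point had 1 library, no test was run, and 95% intervals cover counting error only; PCR duplicates are collapsed by the molecular identifiers. Folds against a count of 0 used a floor of 3 counts. For calls, a gene needed 30 counts over both sums and a ratio of at least 4. In simulated data for the comparison of myonuclei with myoblasts (7376 genes, 200 changed), 100% of changed genes were recovered and 0.0557% of unchanged genes were called. The changed genes were given folds well beyond 4 and more counts than the 30 asked for, with counting error only. Full recovery was thus built in, and the simulation does not measure recovery of genes near these limits. Named genes were the 10 isoform genes, 10 of the 40 other sarcomere and fibre genes, 6 genes of muscle stages, and the 4 genes most like each isoform sum. The genes, lists, ranges and alternatives were chosen with earlier results of these data known. Alternatives covered limits on cells, SoupX values, equal weight per cell, the deepest cells, thresholds and scaling. Python 3.11.15, numpy 2.4.6, scipy 1.17.1, pandas 2.3.3 and matplotlib 3.10.9 were used.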

Additional observations from a re-analysis of the deposited data

Results flagged for a closer look

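Called barcodes that carry no cell type label, or are absent from the table of cells, enter none of the comparisons, and the sum of the 10 isoform genes in them was at both times above the limit that a count of 0 allows. At day 2 the 10 genes summed to 26.9 CPM in 1342 such barcodes, from 178 counts of which 15 were developmental (12 of Myl4 and 3 of Actc1). At day 7 they summed to 4423 CPM in 1504 barcodes, from 19660 counts of which 509 were developmental. Actc1 gave 272 of the day 7 counts in 98 barcodes (61.2 CPM), Tnnt2 85 counts in 18 barcodes, and Myog 352 counts in 33 barcodes. A single day 7 barcode of 57133 counts held 215 counts of Myog, 103 of Actc1, 59 of Tnnt2, 13 of Myh3 and 15 of Acta1. A second, of 55334 counts, held 50 counts of Myog and 8 of Tnnt2 and none of Actc1 or Myh3. Why these barcodes lack a label was not tested.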

How the results depend on the processing

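No paired analysis was possible because each time point had 1 library, and for the same reason no replicate could be left out. Of the values that answer a comparison, 69 stayed within their interval (counts within 1.5 times) under the alternatives and 64 moved beyond it. None of these changed direction, but Myh3, higher in the Myog than in the fibre range per count sequenced, was level under median-of-ratios scaling. For the moved values the cause was not tested, except where the alternative itself takes cells or counts away. Alternatives on the ranges, the non-muscle labels and the muscle labels as a whole were chosen after seeing the data.

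The summed level of the 10 genes in the myoblast label (53965 CPM) became 51608 with stricter limits on cells, 55115 with SoupX values, 56682 without mitochondrial counts, 37055 with equal weight per cell and 32374 without the 5 cells with the most isoform counts. In the myonuclei (104742 CPM) it became 103544 without limits, and 102167, 106929, 106492, 101908 and 98940 in the same order. The ratio of day 7 to day 2 (423) became 493 with stricter limits, 595 with SoupX values, 158 with equal weight, 508 without the top 5 cells per label and 32.2 without the muscle labels. The level in non-muscle labels (390 CPM) became 359, 122, 409.7, 495 and 259 with stricter limits, SoupX values, no mitochondrial counts, equal weight and no top 5 cells.

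In the myoblast label, leaving out the top 5 cells took the Myh share from 6.35% to 5.02% and its excess over the myonuclei from 5.20 to 3.68 points. The Actc1 share (3.35%) became 4.72% without them and 12.4% with equal weight, and its excess (2.22 points) 3.52, 11.4 and, without limits, 1.99. The Myl4 share (2.28%) became 1.35% and 4.97%, and 2.45% with stricter limits, and its excess (1.76 points) 0.732, 4.32 and 2.15. The Tnnt2 share (0.943%) became 1.48% and 9.002%, and its excess (0.887 points) 1.43 and 8.95. For shares, equal weight was given only to cells with at least 10 counts of the family.

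With the fibre range at 3%, the excess of the Myog range over the fibre range was 7.36 points for Myh, 41.4 for actin, 6.79 for light chain and 39.98 for troponin T. With SoupX values it was 89.7 points for actin and 61.5 for light chain. Without the cell with the most Myh8, the Myl4 share of the smooth muscle labels (15.1%) was 8.61% and its excess over ambient (14.2 points) 7.66 points. Without cells of 0.1% or more in fibre genes, the Tnnt2 excess of monocytes and macrophages over ambient was 6.75 points. The share of muscle cells with both Myh classes (2.49%) became 0.249% when 2 counts of each were asked for and 0.998% with SoupX values. Cells led by Myh4 (40) numbered 73 at 5 or more Myh counts, 12 at 30 or more and 17 with stricter limits.

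The isoform share of ambient RNA was 0.0217% at day 2 and 1.05% at day 7. From barcodes of 1 to 10 counts it was 0.0137% and 0.513%, from those of 11 to 100 counts 0.0247% and 1.12%, and without mitochondrial counts 0.0536% and 1.75%. Genes called higher in the myoblast than in the MuSC label (326) numbered 802 at 2-fold and 528 under median-of-ratios scaling. Those higher in the myonuclei than in the myoblast label (72) numbered 464 at 2-fold, 23 with 100 counts asked for, 3711 with no count filter and 237 under median-of-ratios scaling. Depth limits Myh3, Myh8, Myh2 and Tnnt2 most, with 5 or fewer counts each in type IIb myonuclei.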
